A study of Homo sapiens with 18 samples.

Results

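The complement genes examined here were C3, CFB, C1R, C1S, CFI, SERPING1, CD46, CD55 and CD59, taken by gene symbol from the table of TempO-Seq probes. They are 9 of the 19289 gene symbols in the table and were read by 10 of its 21111 probes, with 2 probes for CD55 (CD55_1141 and CD55_28297) and 1 for each other gene. The values come from established human triple-negative breast cancer (TNBC) lines, named BT549, Hs578T and SUM149PT and collected 72 h after transfection with siRNA at 50 nM. siASAP1 is a mixture of siRNAs against ASAP1, which encodes an Arf GTPase-activating protein, and the control siCtrl is a pool of siRNAs against kinases, so control cells were also transfected and also carried siRNAs with targets. Each of the 6 groups had 3 libraries, described as biological triplicate. TempO-Seq ligates a pair of detector oligonucleotides on a target RNA and counts the ligated product, so a level belongs to its probe and levels of different genes are not compared here. Values are normalized counts, which are reads divided by the library's size factor.

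Complement is a cascade of proteolytic enzymes. The classical pathway is started by the serine proteases C1r and C1s, which are bound to C1q, and the alternative pathway by factor B (CFB), which joins C3b to form a convertase that cleaves more C3. Factor I (CFI) is a protease that inactivates C3b with cofactors such as CD46. C1 inhibitor (SERPING1) blocks C1r and C1s, CD55 dissociates convertases on the cell surface, and CD59 blocks the membrane attack complex. Most soluble components in blood come from the liver, but many epithelial and mesenchymal cells also make C3, factor B, C1r and C1s, and inflammatory cytokines are known to raise several of them. Nucleated cells carry CD46, CD55 and CD59, which guard them against complement.

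In the GRCh38 assembly with GENCODE 29, C1R (chr12:7080199-7092607, minus strand) and C1S (chr12:6988259-7071032, plus strand) lie 9.2 kb apart. CD55 (chr1:207321376-207386804) and CD46 (chr1:207752057-207795513) lie 365.3 kb apart on the plus strand of chromosome 1. C3 lies at chr19:6677704-6730562 (minus strand), CFB at chr6:31945650-31952084 (plus strand), CFI at chr4:109740694-109802179 (minus strand), CD59 at chr11:33703010-33736491 (minus strand) and SERPING1 at chr11:57597387-57614853 (plus strand). The annotated spans of CFB and C2, and of C1R and C1RL, overlap, and the exon each probe covers was not determined here.

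RefSeq start regions (GRCh38.p14) were matched for 6 of the 9 genes (CFB, C1R, CFI, CD46, CD55 and CD59). The 250 bases before each start were searched on both strands for the NF-kappaB consensus, for the STAT-type motif TTCNNNGAA, for the interferon-response motif GAAANNGAA and for the C/EBP-type motif TTGCNNAA. Of 35116 start regions of all genes, 9.96%, 6.57%, 6.88% and 9.05% held these motifs. CFB was the only matched gene whose start region held the first of them, and it also held the STAT-type and interferon-response motifs, in the stretches from -145 to -125 (chr6:31945950-31945970, plus strand) and from -112 to -84 (chr6:31945983-31946011, plus strand) counted from the start. Such stretches are shown, with each motif in capitals, for CFB, C1R and CD59. CFB was called higher after siASAP1 in SUM149PT alone, by limits before adjustment given below, and not over all libraries. C1R is the neighbour of C1S, which was called higher in each cell line by those limits. CD59 is a regulator that was not called in any comparison. C1R held TTCNNNGAA before an alternative start (chr12:7091961-7091989, minus strand) and CD59 before its first (chr11:33736589-33736617, minus strand). TTGCNNAA was found before starts of C1R and CD59. The regions of CFI, CD46 and CD55 held none of the 4 motifs. A match describes the letters and does not show that a factor binds there.
CFB, -145 to -125: tgcagtTTCTGTTTCcttgac
CFB, -112 to -84: GGGGCCCTCCcgcttggatgTTCCGGGAA
C1R, -96 to -68: gccagtcctaTTCCTGGAAggggagggga
CD59, -138 to -110: ccacccggccTTCTCAGAAcctgggccag

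The libraries held 4.63 to 12.49 M reads (median 6.63 M), so that 1 read was worth 0.578 to 1.60 normalized counts. ASAP1 fell to 62.3% of the mean siCtrl level in BT549, 49.9% in Hs578T and 36.1% in SUM149PT. Its Log2 FC was -0.75, -0.98 and -1.16 in these lines, and -0.96 over the 18 libraries (adjusted p = 0.127, limma). With these values ASAP1 itself met the limits for a call, given below, in no comparison of siASAP1 with siCtrl. Its groups did not overlap in BT549 or Hs578T. In SUM149PT, the library labelled siCtrl replicate 2 had an ASAP1 normalized count of 189, within the siASAP1 range of 184 to 468 and far below the 1087 and 1314 of the other siCtrl libraries. That library also had the lowest correlation with the other replicates of its group (r = 0.872, against 0.905 to 0.966 in the other libraries). Without it ASAP1 stood at 25.9% of siCtrl in SUM149PT. The share of all probes that met the limits for a call given below was 23.4% without it, against 9.56% with it. In BT549 the share rose likewise without siASAP1 replicate 1, from 6.97% to 22.5%. In the SUM149PT library labelled siCtrl replicate 2, C3 and C1S lay on the labelled side, as the values below show. Its counts at both CD55 probes were near those of siASAP1 replicates 1 and 3. Summed basal and epithelial markers were 21307 to 40063 normalized counts in SUM149PT and at most 167 in the other lines, and summed mesenchymal markers were 139322 to 258467 in Hs578T, 42141 to 106799 in BT549 and 5867 to 12251 in SUM149PT. Of 11 probes for blood, endothelial and other cells, 9 stayed under 10 reads in every library, and their sum was at most 109 normalized counts. Summed probes for the hormone receptors and HER2 were at 26.4 to 280 normalized counts. In lysates of whole wells, fewer cells of a type and less RNA per cell cannot be told apart.

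The first question was which complement genes changed when ASAP1 was depleted. C3 and C1S rose after siASAP1 over the 18 libraries (Log2 FC 1.57 and 1.72), and none of the 9 genes was called lower in any comparison of siASAP1 with siCtrl on all libraries. CFB met the limits for a differentially expressed gene (DEG) in SUM149PT and CFI in Hs578T. The membrane regulators CD46, CD55 and CD59 met them in no cell line. The limits for DEGs within a cell line followed the study's methods, where the p came from the Wald test of DESeq2, whereas here it came from limma. They were an absolute Log2 FC above 1 and a p under 0.05 before adjustment on the log2(normalized count + 1) scale, for probes whose mean reached 10 normalized counts. At those limits 3.28% of tested probes were called higher and 3.69% lower in BT549, 1.34% and 1.44% in Hs578T, and 5.27% and 4.29% in SUM149PT. No probe had an adjusted p under 0.05 in a single cell line, while 754, 502 and 1025 had an unadjusted p under 0.05. Over the 18 libraries, calls were made at a Benjamini-Hochberg adjusted p under 0.05, which took 0.678% of 10475 probes as higher and 1.06% as lower.

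**Figure D1:**
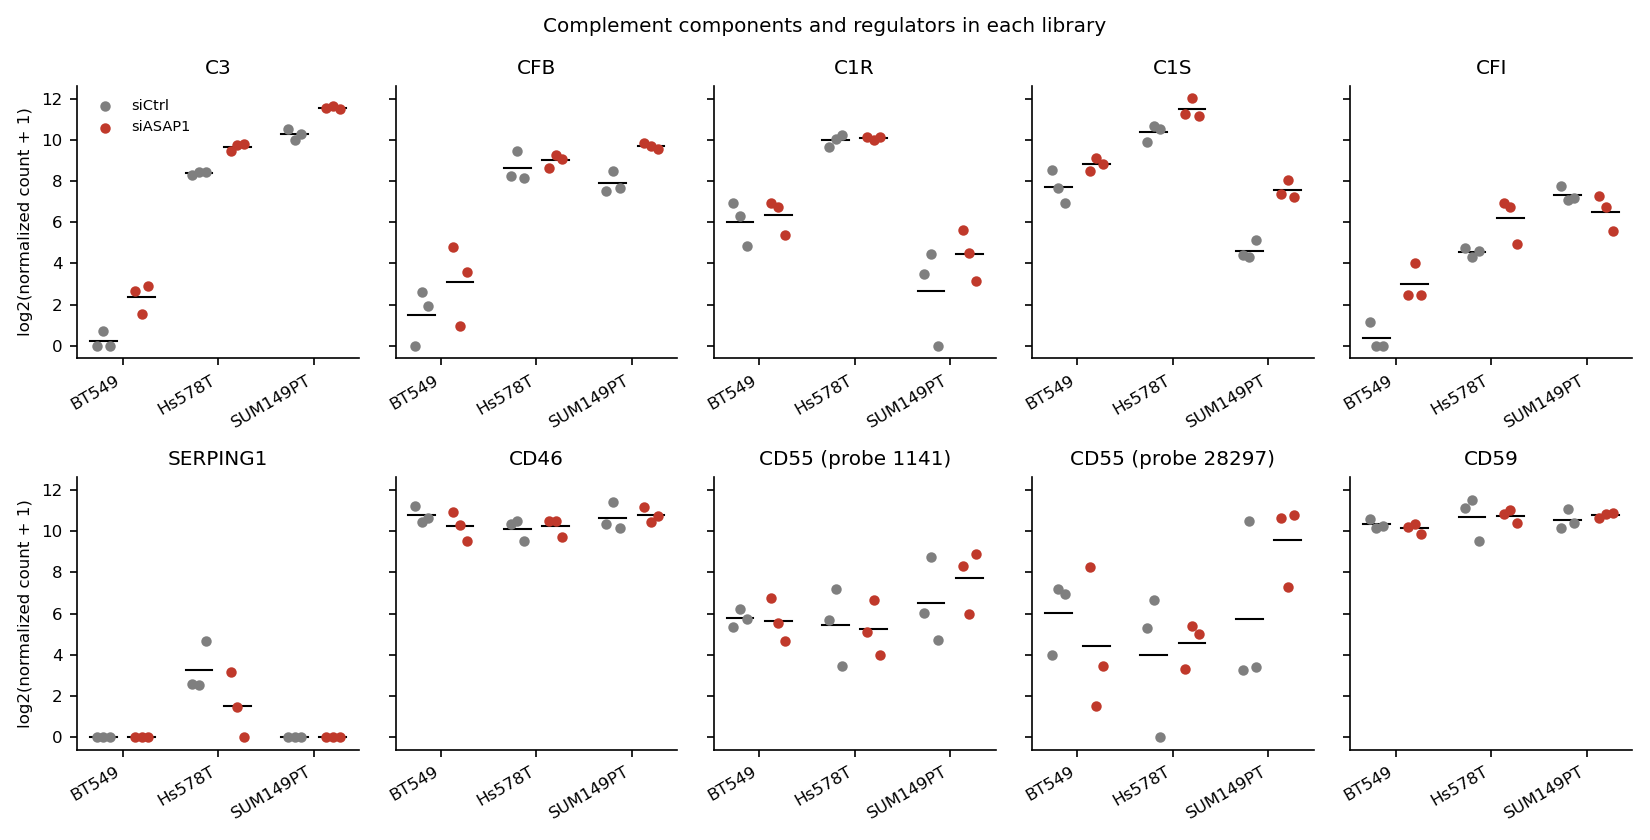
Each point is 1 library; the y axis is log2(normalized count + 1), the x axis the cell line, grey points are siCtrl, red points siASAP1 and black bars group means of 3 libraries. C3 and C1S sit higher in siASAP1 libraries, the groups of CD46 and CD59 overlap in every line, the points of CD55 are spread widely, and SERPING1 is at 0 outside Hs578T.

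C3, the central component on which all activation routes converge, had normalized counts of 309, 347 and 351 in the siCtrl libraries of Hs578T and 701, 858 and 880 in the siASAP1 libraries. In SUM149PT they were 1472, 1015 and 1226 with siCtrl and 2977, 3234 and 2865 with siASAP1. The groups did not overlap in either line. The ratio of means was 2.42 in Hs578T and 2.44 in SUM149PT, and the Log2 FC was 1.27 (SE 0.26, adjusted p = 0.711, limma) and 1.30 (SE 0.34, adjusted p = 0.334, limma), both within the DEG limits. BT549 cells barely expressed C3, with 0, 1 and 0 reads in the siCtrl libraries and 6, 2 and 7 in the siASAP1 libraries. Every siASAP1 library of BT549 was above every siCtrl library there too. In SUM149PT without the library labelled siCtrl replicate 2, the Log2 FC of C3 was 1.17 (adjusted p = 0.0747, limma). Summed over the BT549 libraries, 15 reads stood against 1, a ratio of 17.5 in normalized counts with a counting interval from 2.69 to 735, and the exact permutation test gave a two-sided p of 0.1, the smallest that 3 libraries against 3 allow. For all lines together the Log2 FC of C3 was 1.57 (SE 0.23, 95% confidence interval 1.08 to 2.05, adjusted p = 0.00224, limma), and with a pseudocount of 0.1 in place of 1 it was 2.33 (adjusted p = 0.0201, limma). The 1.57 also takes in the BT549 libraries, where C3 was too low to be tested alone. The effect on C3 was not shown to differ between the cell lines (interaction adjusted p = 0.965, limma). Under other processing the unadjusted interaction p ranged from 0.0038 to 0.369 (limma), with no adjusted p under 0.371.

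CFB, the alternative-pathway protease that pairs with C3b, separated the groups in SUM149PT. Its normalized counts there were 183, 351 and 201 with siCtrl and 909, 824 and 742 with siASAP1. All 3 siASAP1 libraries were above all 3 siCtrl libraries, and the Log2 FC was 1.80 (SE 0.42, adjusted p = 0.334, limma), or 2.09 without the library labelled siCtrl replicate 2 (adjusted p = 0.0489, limma). In Hs578T, 300.4, 704 and 279 with siCtrl overlapped 401, 605 and 542 with siASAP1. The Hs578T difference stayed within the replicate spread, with a Log2 FC of 0.38 (95% confidence interval -0.49 to 1.26). In BT549 CFB had 0, 5.03 and 2.81 normalized counts with siCtrl and 26.7, 0.944 and 10.95 with siASAP1, which overlap. Its Log2 FC over all libraries was 1.26 (SE 0.45, adjusted p = 0.161, limma), not a call. No difference of its effect between lines was detected (interaction adjusted p = 0.968, limma).

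C1S, the protease that cleaves C4 and C2 in the classical pathway, rose by the DEG limits in all 3 cell lines, the only complement gene here to do so, though C3, CFB and CFI had too few reads to be tested in BT549. Its siCtrl libraries in SUM149PT held 20.02, 19.1 and 33.6 normalized counts and its siASAP1 libraries 165, 267 and 147. In Hs578T the values were 943, 1628 and 1461 with siCtrl and 2468, 4119 and 2301 with siASAP1. Neither line had overlapping groups. In BT549, 364, 202 and 120 with siCtrl overlapped 357, 547 and 450 with siASAP1, because siCtrl replicate 1 was above siASAP1 replicate 1. The Log2 FC was 2.94 in SUM149PT (SE 0.55, adjusted p = 0.275), 1.13 in Hs578T (SE 0.32, adjusted p = 0.915) and 1.10 in BT549 (SE 0.47, adjusted p = 0.633), each from limma. With all lines together it was 1.72 (SE 0.30, 95% confidence interval 1.09 to 2.35, adjusted p = 0.00625, limma). In BT549 the call was lost without siASAP1 replicate 2 or 3 or without siCtrl replicate 2 or 3, where the Log2 FC was 0.95, 1.09, 1.08 and 0.71. SUM149PT without the library labelled siCtrl replicate 2 gave 2.80 (adjusted p = 0.0557, limma). In Hs578T the call was lost without siASAP1 replicate 2 (Log2 FC 0.86) or siCtrl replicate 1 (0.89).

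C1R, the protease that activates C1s and the chromosomal neighbour of C1S, did not follow it past any limit. Hs578T cells had 801, 1062 and 1205 normalized counts with siCtrl and 1130, 997 and 1118 with siASAP1. BT549 cells had 122, 76.7 and 27.4 with siCtrl and 123, 106 and 41.1 with siASAP1. Both pairs of groups overlapped, with a Log2 FC of 0.10 (95% confidence interval -0.48 to 0.68) in Hs578T and 0.34 (-1.11 to 1.80) in BT549. In Hs578T the interval for C1R excludes the change of 1.13 found for C1S, although the difference between the genes was not tested. SUM149PT cells had 10.0, 21.0 and 0 normalized counts with siCtrl and 49.0, 21.8 and 7.88 with siASAP1, too few reads for a narrow interval (Log2 FC 1.80, -1.47 to 5.06). In the common fit the Log2 FC was 0.75 (adjusted p = 0.526, limma).

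SERPING1, the inhibitor of C1r and C1s, was not detected in any of the 6 BT549 or the 6 SUM149PT libraries. A count of 0 reads allows up to 3 reads per library, which is 1.89 to 3.74 normalized counts in BT549 and 2.73 to 4.80 in SUM149PT. In Hs578T it had 6, 6 and 25 reads with siCtrl and 7, 3 and 0 with siASAP1. The Hs578T groups overlapped (two-sided exact permutation p = 0.3), and the probe passed the filter on low counts in no comparison.

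CFI, the protease that inactivates C3b, moved in opposite directions in the point estimates of Hs578T and SUM149PT. In Hs578T it had 26.2, 18.8 and 23.6 normalized counts with siCtrl and 122, 105 and 29.9 with siASAP1. These groups did not overlap, and the Log2 FC was 1.64 (SE 0.59, adjusted p = 0.915, limma), a call lost without siASAP1 replicate 1 (Log2 FC 1.27) or 2 (1.38). In SUM149PT 212, 136 and 145 with siCtrl overlapped 151, 105 and 46.0 with siASAP1, for a Log2 FC of -0.83 (95% confidence interval -2.15 to 0.49). BT549 libraries held 1, 0 and 0 reads with siCtrl and 5, 16 and 5 with siASAP1. All BT549 siASAP1 libraries were above the siCtrl libraries, with a ratio of summed normalized counts of 30.3 (counting interval 4.97 to 1240, two-sided exact permutation p = 0.1). The common Log2 FC of CFI was 1.13 (SE 0.50, adjusted p = 0.271, limma).

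Set beside all tested probes, the complement probes called higher were 1 of 6 in BT549 (C1S), 3 of 9 in Hs578T (C3, C1S and CFI) and, for SUM149PT, also 3 of 9 (C3, C1S and CFB), and 0 were called lower. Of all tested probes 3.28%, 1.34% and 5.27% were called higher in these lines. In BT549 C3, CFB, CFI and SERPING1 had too few reads to be tested. The complement genes were chosen with earlier results of these data known, so these shares are descriptions and not a test of the set. Groups that did not overlap, each with siASAP1 above, were found for 0 of the 6 probes in BT549 and for 3 of the 9 in both Hs578T and SUM149PT. Among all tested probes siASAP1 was above siCtrl without overlap for 7.35%, 6.31% and 8.87%. In the common fit 2 of 9 complement probes were called, both higher, against 0.678% of all probes called higher. The median Log2 FC of the complement probes was -0.16 in BT549, 0.38 in Hs578T, 1.30 in SUM149PT and 0.94 over the 18 libraries, against -0.00, 0.01, 0.09 and 0.02 for all tested probes. Scaling by library totals moved those last medians to 0.06, 0.12, 0.30 and 0.15, and C3 and C1S were called over the 18 libraries under that scaling as well.

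The question whether the effect of siASAP1 differed between cell lines was put to an interaction test, in which 0.00955% of probes had an adjusted p under 0.05. No complement probe was among them (652 of the 10475 probes had an unadjusted p under 0.05). The smallest values among the complement probes were an adjusted p of 0.487 for CFI and 0.505 for C1S (limma). In this main fit they were the only members of the set with an unadjusted interaction p under 0.05.

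**Figure D2:**
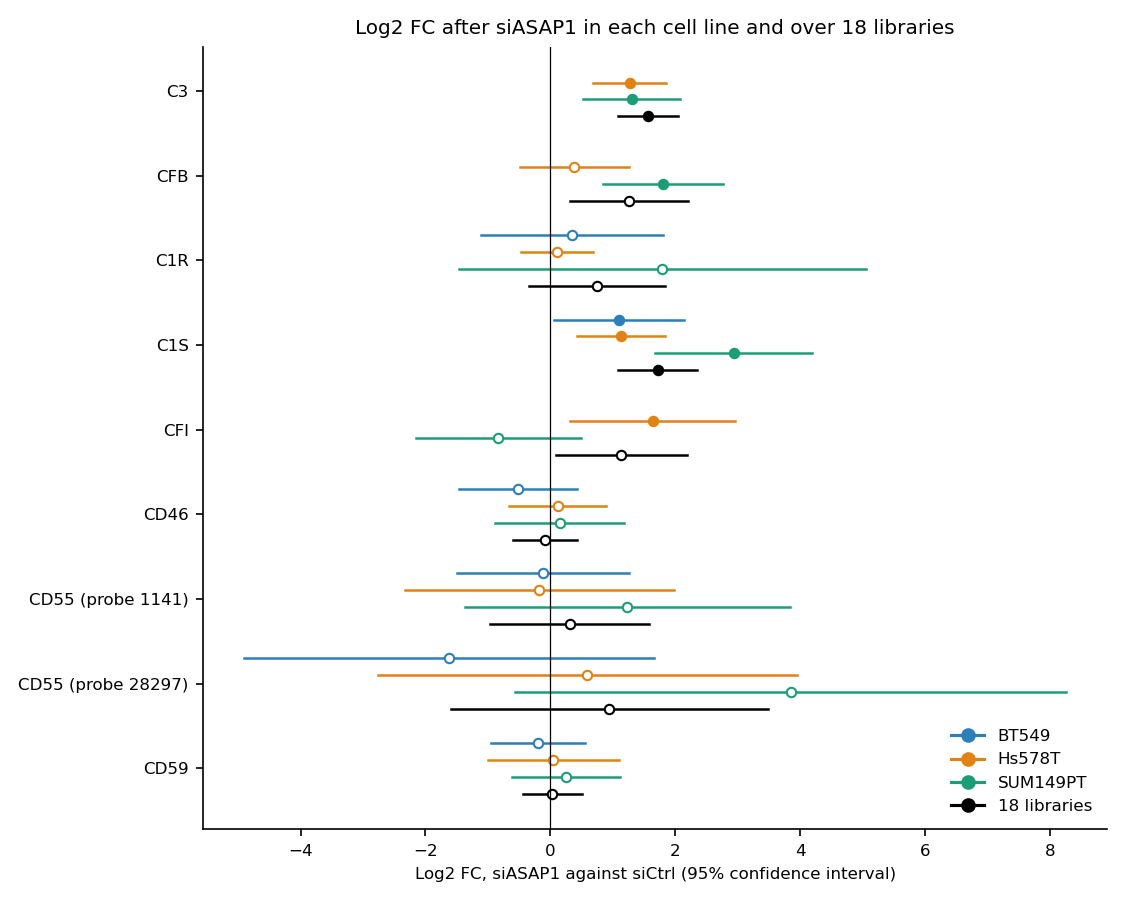
Points are the Log2 FC of siASAP1 against siCtrl on the x axis, lines 95% confidence intervals from limma, colours the cell lines and black the fit over 18 libraries; filled points met the limits for a call. C3 and C1S are filled over 18 libraries at 1.57 and 1.72, where CD46 and CD59 lie close to 0 with short intervals. Within each cell line the intervals of CD46 and CD59 are wider, such as -1.47 to 0.42 for CD46 in BT549. That of CD59 in SUM149PT runs from -0.62 to 1.12. The interval of CD55_28297 in SUM149PT runs from -0.56 to 8.26. C3, CFB and CFI were too low in BT549 to be tested.

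Of the membrane regulators, CD46, the cofactor for factor I, had group means between 1167 and 1810 normalized counts. BT549 had 2388, 1392 and 1606 normalized counts with siCtrl and 1972, 1250 and 729 with siASAP1. Hs578T had 1310, 1465 and 726 with siCtrl and 1453, 1449 and 842 with siASAP1. SUM149PT had 1299, 2739 and 1148 with siCtrl, where the high value is replicate 2, and 2330, 1401 and 1699 with siASAP1. The groups overlapped in each line. The Log2 FC over the 18 libraries was -0.09 (95% confidence interval -0.60 to 0.42), and its sign turned with scaling by library totals (0.044).

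CD59, the inhibitor of the membrane attack complex, had group means between 1144 and 1951 normalized counts. BT549 had 1557, 1147 and 1216 normalized counts with siCtrl and 1198, 1312 and 921 with siASAP1. Hs578T had 2236, 2888 and 729 with siCtrl and 1826, 2123 and 1338 with siASAP1, so its lowest and highest values were both siCtrl libraries. SUM149PT had 1158, 2170 and 1340 with siCtrl and 1615, 1833 and 1915 with siASAP1. All groups overlapped. The Log2 FC over the 18 libraries was 0.03 (95% confidence interval -0.44 to 0.51), which excludes a 2-fold change in either direction, and its sign turned with scaling by the upper quartile (-0.0096).

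CD55, which dissociates convertases, varied more between replicates than between treatments. Probe CD55_1141 read 39.9, 72.9 and 53.3 normalized counts with siCtrl and 107, 45.3 and 24.6 with siASAP1 in BT549. It read 50.6, 146 and 9.85 with siCtrl and 34.0, 101 and 14.9 with siASAP1 in Hs578T, and 64.4, 429 and 25.6 with siCtrl and 318, 61.5 and 481 with siASAP1 in SUM149PT. In SUM149PT, the library labelled siCtrl replicate 2 resembled siASAP1 replicates 1 and 3, and siASAP1 replicate 2 resembled the other siCtrl libraries. The same pair of libraries lay on their labelled sides for C3 (1015 in siCtrl replicate 2 and 3234 in siASAP1 replicate 2) and for C1S (19.1 and 267), whereas ASAP1 was at 189 and 468.

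Probe CD55_28297 spread more widely. In SUM149PT it read 8.58, 1450 and 9.59 normalized counts with siCtrl and 1594, 155 and 1769 with siASAP1. The library labelled siCtrl replicate 2 was again near siASAP1 replicates 1 and 3, and siASAP1 replicate 2 lay between them and the other siCtrl libraries. In BT549 it read 15.0, 145 and 121 with siCtrl and 308, 1.89 and 10.0 with siASAP1, and in Hs578T 38.0, 100 and 0 with siCtrl and 9.07, 41.1 and 30.9 with siASAP1. The groups overlapped in each line. It had the higher count of the CD55 probes in 8 libraries and the lower in 10, so the order of the probes was not fixed. Their levels over the 18 libraries rose and fell together (r = 0.83 on deviations from group means, n = 18, libraries that share depth and handling). The pooled SD between replicates was 2.88 on the log2 scale for CD55_28297, above that of 99.7% of tested probes, and 1.49 for CD55_1141, against a median of 0.81 for all tested probes and 0.37 for C3.

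For CD55_28297 in SUM149PT, the Log2 FC was 3.85 (SE 1.91, adjusted p = 0.541, limma). Without the library labelled siCtrl replicate 2 it was 6.24 (adjusted p = 0.0489, limma), and that of CD55_1141 went from 1.23 to 2.35, both then within the DEG limits. Over all probes, 2325 of 9953 (23.4%) met the limits without that library and 107 had an adjusted p under 0.05. Without siASAP1 replicate 2, CD55_28297 also met the limits (4.99), as did 11.4% of all probes. In BT549 the same probe had a Log2 FC of -1.62 (SE 1.48), and of -3.54 without siASAP1 replicate 1, which met the limits in the other direction, as did 13.2% of all probes in that fit, against 3.69% with all libraries. The common value was 0.94 (95% confidence interval -1.60 to 3.48).

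**Figure D3:**
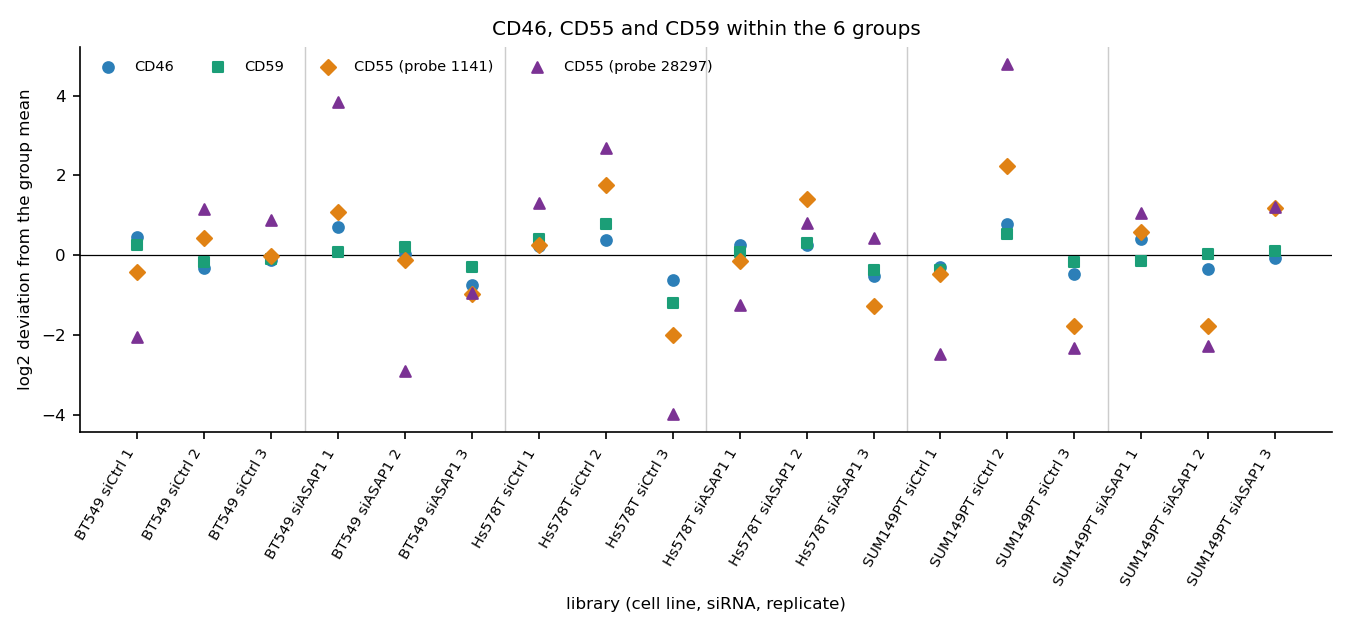
Each mark is a probe's log2 deviation from the mean of its group (y axis) in 1 of 18 libraries (x axis), with grey lines between the 6 groups. The CD55 probes move together and farthest, up to over 4 log2 units in SUM149PT siCtrl 2, where CD46 and CD59 are also above their group means.

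Within groups, CD46, CD55 and CD59 tended to be high in the same libraries. On deviations from group means, r was 0.72 for CD46 with CD59, 0.78 for CD46 with CD55_1141, 0.71 for CD59 with CD55_1141, 0.64 for CD46 with CD55_28297 and 0.58 for CD59 with CD55_28297. C3 with CFB had 0.70, while C3 with C1S had -0.06 and C1R with C1S -0.00. The widest deviations of C3 and of CFB were in BT549, where libraries held at most 7 and 30 reads. The 0.70 therefore rests largely on counts near 0. All these r values are descriptions over 18 libraries. On deviations from each line's mean, which keep the treatment difference, C3 had r = 0.73 with CFB and 0.69 with C1S. There too the widest deviations of C3 and CFB were in BT549.

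**Figure D4:**
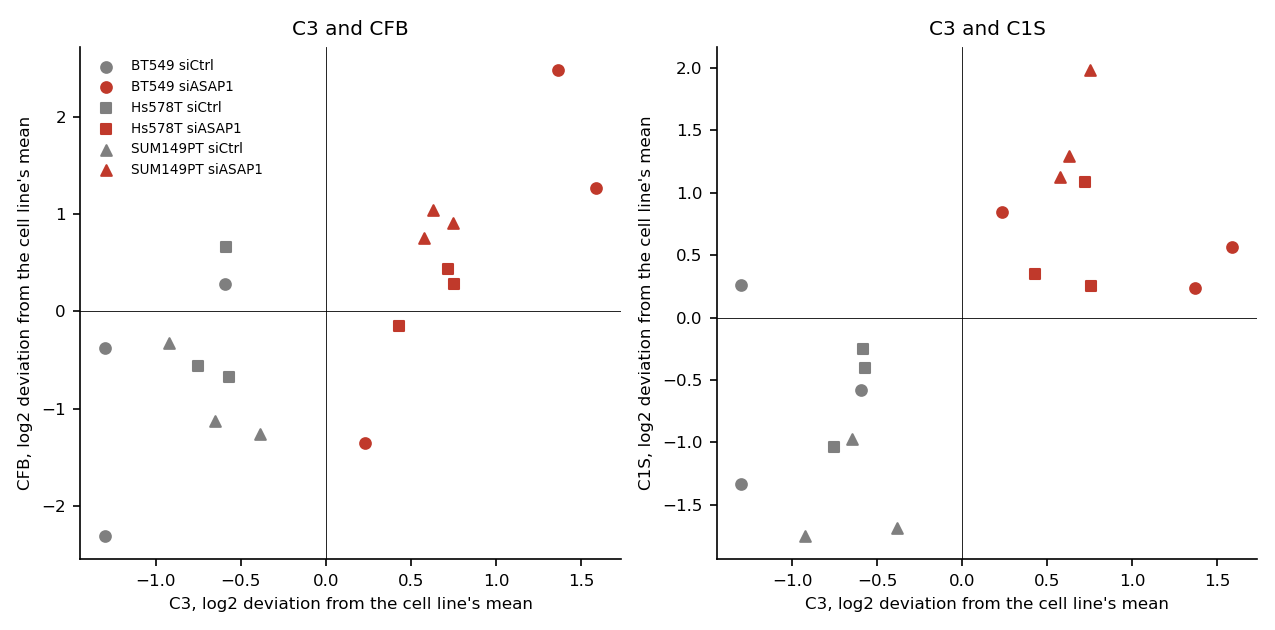
Each point is 1 library, placed by the log2 deviation of C3 (x axis) and of CFB or C1S (y axis) from its cell line's mean; shape marks the line, grey siCtrl and red siASAP1. The siASAP1 libraries lie to the right and mostly above, with r = 0.73 for CFB and 0.69 for C1S over 18 libraries. The BT549 points rest on at most 7 reads of C3 and 30 of CFB.

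By the same measure, the probes most like C3 were TNIP3 (r = 0.87), ULK1 (0.86), NCEH1 (0.86), BMP2 (0.84) and PQLC2 (0.83) of 10474 probes compared over 18 libraries. CFB was at rank 77 and C1S at rank 141. C3 deviated most in BT549, where it had at most 7 reads, so this ranking rests in part on low counts. CFI had r = 0.48, C1R 0.24, CD55 0.04 and 0.13, CD59 -0.13, CD46 -0.28 and ASAP1 -0.48. TNIP3, which encodes a partner of the ubiquitin-editing enzyme A20, had 81.0, 103 and 89.7 normalized counts with siCtrl and 296, 272 and 502 with siASAP1 in Hs578T. In SUM149PT it had 129, 155 and 118 with siCtrl and 930, 760 and 1126 with siASAP1, and in BT549 at most 0.70 with siCtrl and 8.0, 17.9 and 12.8 with siASAP1. Its groups overlapped in no line, but TNIP3 was picked for its likeness to C3 over these same libraries.

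The levels in siCtrl cells addressed where these genes were expressed before ASAP1 was depleted. Calls between lines needed an adjusted p under 0.05 and an absolute log2 difference over 1, which 13.8% of 10255 probes met for BT549 against Hs578T, 18.2% for SUM149PT against BT549 and 20.2% for SUM149PT against Hs578T. Of the 9 complement probes tested, 5, 5 and 4 met them. All were among C3, CFB, CFI, C1R and C1S, and none was a probe of CD46, CD55 or CD59.

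C3 was highest in SUM149PT (1238 ± 229 normalized counts, SD, n = 3), lower in Hs578T (335 ± 23.1) and nearly absent in BT549 (1 read in 3 libraries). The log2 difference was 1.87 between SUM149PT and Hs578T (adjusted p = 0.0114, limma). Its call was lost without siCtrl replicate 1 of Hs578T (adjusted p = 0.0577) or of SUM149PT (adjusted p = 0.0612) and with a pseudocount of 0.1 (adjusted p = 0.140). At that pseudocount the difference was still 1.87, and the fit used 1 spread for all 9 siCtrl libraries, BT549 included. Against BT549 the log2 difference of C3 was 10.02 in SUM149PT (adjusted p = 9.29e-07, limma), and Hs578T was above BT549 by 8.16 on the same scale (a log2 difference of -8.16 as BT549 minus Hs578T). With 1 read in BT549, the size of both depends on the pseudocount, and at 0.1 they were 12.62 and -10.75. CFI had the same order, with 164 ± 41.3 in SUM149PT, 22.9 ± 3.76 in Hs578T and 1 read in BT549. SUM149PT was above Hs578T by a log2 difference of 2.78 in CFI (adjusted p = 0.00796, limma). That call was also lost with a pseudocount of 0.1 (log2 difference 2.83, adjusted p = 0.105, limma). CFB was at 428 ± 240 in Hs578T and 245 ± 92.0 in SUM149PT, which did not differ beyond their spread (log2 difference -0.73, adjusted p = 0.528, limma), and at 2.61 ± 2.52 in BT549.

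C1R and C1S had another order. C1S was at 1344 ± 357 in Hs578T, 229 ± 124 in BT549 and 24.2 ± 8.09 in SUM149PT (SD, n = 3), and each step was called (BT549 minus Hs578T -2.66, adjusted p = 0.00431; SUM149PT minus BT549 -3.09, adjusted p = 0.0013, limma). C1R was at 1023 ± 205 in Hs578T, 75.5 ± 47.5 in BT549 and 10.3 ± 10.5 in SUM149PT. The C1R difference was -7.34 for SUM149PT minus Hs578T (adjusted p = 0.000592, limma), -3.96 for BT549 minus Hs578T (adjusted p = 0.0295, limma) and -3.38 for SUM149PT minus BT549 (adjusted p = 0.0471, limma). The -3.96 was lost on leaving out BT549 siCtrl replicate 2 or 3 or any Hs578T siCtrl replicate (adjusted p up to 0.128), and the -3.38 on leaving out any siCtrl library but the SUM149PT replicate 2 (adjusted p 0.0552 to 0.152).

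The order of the regulators was not resolved. CD46 was at 1795 ± 525 in BT549, 1728 ± 878 in SUM149PT and 1167 ± 390 in Hs578T (SD, n = 3). CD59 was at 1951 ± 1107 in Hs578T, 1556 ± 539 in SUM149PT and 1307 ± 220 in BT549. Their log2 differences between lines were from -0.37 to 0.65, all with an adjusted p over 0.05 (limma). For CD55_1141 and CD55_28297 the SUM149PT mean was set by the library labelled siCtrl replicate 2, at 429 and 1450 against 25.6 to 64.4 and 8.58 to 9.59 in the other replicates.

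The rest of the pathway was mostly silent in these cells. Of 49 other complement genes read by 61 probes, 8 probes were tested in BT549, 7 in Hs578T and 6 in SUM149PT, and 0 were called higher, while 2, 0 and 1 were called lower. Of all tested probes 3.69%, 1.44% and 4.29% were called lower. Over the 18 libraries, where 1.06% of all probes were called lower, 7 of the 61 probes were tested. Of these 1 was called, C1QBP_10605, for a mitochondrial protein that binds C1q. It fell by a Log2 FC of -0.92 (SE 0.21, adjusted p = 0.0302, limma), from 17132 to 24856 normalized counts with siCtrl to 5779 to 7237 with siASAP1 in SUM149PT. In Hs578T it went from 8249 to 9255 with siCtrl to 6129 to 6674 with siASAP1, and in BT549 8161 to 19380 overlapped 5003 to 9448. The median Log2 FC of these other probes was -0.89 over the 18 libraries, below the 0.02 of all probes. It was also below the 0.94 of the 9 complement probes described above, which is the value of the widely spread CD55_28297.

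Cytokines, transcription factors and acute-phase proteins that accompany complement in inflammation were read by 44 probes for 39 genes. BT549 had 5 of 14 tested probes called higher, Hs578T 3 of 15 and SUM149PT 7 of 20, and 1 was called lower, PTX3 in SUM149PT (Log2 FC -1.44, adjusted p = 0.481, limma), which was called higher in BT549 (2.24, adjusted p = 0.525, limma). Of all tested probes 3.28%, 1.34% and 5.27% were called higher in these lines. Over the 18 libraries 3 of 19 inflammatory probes were called higher and 0 lower, with a median Log2 FC of 0.76. Among all probes 0.678% were called higher and 1.06% lower there. This list and that of the other complement genes were also chosen with earlier results of these data known. NFKBIZ, an IkappaB protein of the nucleus that works with NF-kappaB on part of its targets, had the smallest p (Log2 FC 1.12, SE 0.22, adjusted p = 0.0114, limma). The interleukin genes IL1B (2.0, SE 0.45, adjusted p = 0.0255) and IL1A (2.11, SE 0.52, adjusted p = 0.042) were the others called by limma.

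NFKBIZ read 489 to 692 normalized counts with siCtrl and 1240 to 2154 with siASAP1 in SUM149PT, and its groups overlapped in no line. IL1B read 6.38 to 20.8 with siCtrl and 69.2 to 103 with siASAP1 in SUM149PT, and 6.75 to 11.4 and 39.3 to 94.9 in Hs578T, without overlap in either. IL1A read 56.5 to 84.4 with siCtrl and 713 to 871.3 with siASAP1 in SUM149PT. In Hs578T IL1A had 16.7, 26.2 and 206 at its lowest, median and highest with siCtrl and 145, 164 and 220 with siASAP1, so that a single siCtrl library reached the siASAP1 range. In BT549 IL1A and IL1B were at 0 in all siCtrl libraries. A link between these genes and the complement genes was not tested.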

How the data were processed

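The deposited values are log2 of a normalized count plus 1 for 21111 TempO-Seq probes in 18 libraries. The authors counted reads per probe, divided each library by its DESeq2 size factor and added 1. The submitters' processing notes also name bcl2fastq and Bowtie, and the genome build is not given in the sources used here. Undoing the log2 gave whole reads for 100% of values (within 0.01 reads or 1e-06 of the value). Reads without molecular identifiers are not independent molecules, so intervals and floors of 3 reads cover counting error only.

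Samples were grouped by the labels' cell line and treatment. limma 3.58.1 (lmFit and eBayes with a trend, R 4.3.3) was run on the deposited log2 values, for probes whose mean over the fitted libraries reached 10 normalized counts. The plan allowed for a count-based test, which was not run because the deposited unit is log2. Each cell line was fitted alone, the common effect with the cell line as a covariate, differences between lines as an interaction, and line differences on the 9 siCtrl libraries. P-values were adjusted by Benjamini-Hochberg over all probes tested. All fits were tested on simulated data. Single values of 3 against 3 used two-sided exact permutation tests. The complement genes, the other complement genes, the inflammatory list and the cell markers were chosen with earlier results of these data known. Text names all complement probes above, ASAP1, other complement probes called or among the 8 highest (some are counted in their list but not reported by name here), inflammatory genes called over 18 libraries, and the 5 probes most like C3; other inflammatory genes were named after their values were seen. Alternatives were other scalings, filters and pseudocounts, a replicate block, summed probes, voom weights, 1 fit of 18 libraries, adjusted calls and each replicate left out.

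Same-numbered siASAP1 and siCtrl libraries did not all deviate together (r -0.35 to 0.11 in BT549, 0.10 to 0.35 in Hs578T, -0.65 to -0.32 in SUM149PT), so the numbers were not taken to pair samples. p-values measure the spread between these libraries. Start regions and coordinates came from RefSeq (GRCh38.p14) and GENCODE 29 (GRCh38). Figures used Python 3.11.15 and matplotlib 3.10.9.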

Additional observations from a re-analysis of the deposited data

Results flagged for a closer look

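The effect of siASAP1 on C1S and on CFI differed between the cell lines before adjustment for the number of probes tested. For C1S, the interaction p was 0.00848 (adjusted p = 0.505, limma), with a Log2 FC of 2.94 in SUM149PT against 1.13 in Hs578T and 1.10 in BT549. For CFI it was 0.00729 (adjusted p = 0.487, limma), with 1.64 in Hs578T and -0.83 in SUM149PT, and BT549 had 26 reads with siASAP1 against 1 with siCtrl. The unadjusted p stayed under 0.05 for both when any library was left out, at most 0.032 for C1S and 0.0275 for CFI. Neither passed adjustment under any alternative.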

How the results depend on the processing

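The calls of C3 and C1S over the 18 libraries held under both other scalings, both filters, the smaller pseudocount, summed probes, voom weights and every left-out library. With an adjusted p under 0.05 as the limit, 0 of the 1, 3 and 3 complement probes called in BT549, Hs578T and SUM149PT remained. Without a filter on low counts 3 were called in BT549. With a pseudocount of 0.1, 2 of the 4 calls between SUM149PT and Hs578T siCtrl cells remained, as C3 (adjusted p = 0.140) and CFI (adjusted p = 0.105) were lost, and C1R was lost for BT549 against both other lines. C1R between SUM149PT and BT549 was also lost without a filter (adjusted p = 0.0524) and with voom weights (adjusted p = 0.0685). At a pseudocount of 0.1 the C3 and CFI differences between SUM149PT and Hs578T were still 1.87 and 2.83. Each fit between lines used 1 spread over the 9 siCtrl libraries. The cause of the lost calls was not tested.

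Leaving out a library in turn gave 0 to 2 calls in BT549, 1 to 3 in Hs578T, 3 to 5 in SUM149PT, 2 over the 18 libraries, 0 in the interaction test, and 4 to 5, 4 to 5 and 3 to 4 between siCtrl lines. The 5 in SUM149PT came without the library labelled siCtrl replicate 2, where 23.4% of all probes were called against 9.56%. The 2 in BT549 came without siASAP1 replicate 1, where 22.5% of all probes were called against 6.97%. In that BT549 fit 544 probes had an adjusted p under 0.05.

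The same replicate number did not mark a pair in every line; in Hs578T each library correlated best with its own number, as a hint from the data. With the replicate number as a block, 0 complement probes were called in BT549, 3 in Hs578T, 3 in SUM149PT and 1 over the 18 libraries, where C1S was lost (adjusted p = 0.0584, limma). The block changed no call between siCtrl lines.

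Signs turned for these probes, none of them called in that comparison. CD46 over the 18 libraries was at 0.044 with library totals, and CD59 at -0.0096 with upper-quartile scaling. On leaving out a library, the Log2 FC ranged over the 18 libraries from -0.19 to 0.050 for CD46, -0.14 to 0.15 for CD59 and -0.0098 to 0.59 for CD55_1141. In BT549 it ranged from -0.25 to 0.83 for C1R and -0.67 to 0.37 for CD55_1141. In Hs578T it ranged from -0.067 to 0.23 for C1R, -0.19 to 0.38 for CD46, -1.18 to 0.70 for CD55_1141, -0.55 to 0.44 for CD59 and -1.40 to 1.93 for CD55_28297. In SUM149PT it ranged from -0.091 to 0.54 for CD46. Between siCtrl cells, SUM149PT minus BT549 ranged from -0.52 to 0.11 for CD46, -0.056 to 0.40 for CD59, -0.39 to 1.61 for CD55_1141 and -2.71 to 0.91 for CD55_28297. SUM149PT minus Hs578T ranged from -0.76 to 0.23 for CD59, -0.062 to 1.95 for CD55_1141 and -0.65 to 3.08 for CD55_28297, and BT549 minus Hs578T from -0.97 to 0.020 for CD59 and -0.67 to 1.21 for CD55_1141. Depth limits C3, CFB, CFI and SERPING1 in BT549 and C1R in SUM149PT, which had few reads.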
